A study of Mus musculus with 2 samples.

Results

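Mitochondrial ribosomal protein genes were the 76 genes that have a symbol of Mrpl or Mrps and a number, with a letter where there is one, in the platform annotation of a mouse bead array. They were read by 132 of its 45281 probes and stood among 19057 named genes. They included 48 Mrpl and 28 Mrps genes. RNA of all cells of dissociated E11.5 mouse hearts, at mid-gestation, was hybridised to 1 array. A second array received RNA of epicardial cells that were isolated from hearts of this stage as positive for lacZ. Both samples were Tcf21lacZ, an allele that carries lacZ at the locus of the transcription factor gene Tcf21, which is active in the epicardium and in cells derived from it, and both came from a background that mixes C57BL/6, 129 and CD-1. Total heart thus carried the same allele and included the lacZ-positive cells with all others. The sources used here do not say how many embryos were pooled. Each group had 1 array, so no difference has a replicate check or a test, and all of them are described by size.

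Mitochondria make a small set of proteins of their own, all of them subunits of the respiratory chain and the ATP synthase, on ribosomes that sit in the matrix at the inner membrane. The RNA of these ribosomes comes from mitochondrial DNA. All of their proteins come from nuclear genes, are made in the cytosol and are imported, so that assembly needs both genomes. Part of the proteins belong to families that bacterial ribosomes have too, and part were added in the evolution of mitochondria. The developing myocardium is rich in mitochondria, and the need for these ribosomes varies between tissues with the amount of respiratory chain they build.

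After quantile normalization the mitochondrial ribosomal protein genes were lower in the lacZ-positive cells than in total heart by a small and rather uniform amount, while with no normalization between arrays or with median scaling their median lay above 0 and still below that of all genes. Of the 76 genes, 71 had a probe with a detection p-value under 0.01 on at least 1 array, and all 71 of these were detected on both. That is 93.4% of the members, beside 51.0% of all named genes. The median log2 ratio, lacZ-positive minus total heart, was -0.29 over the 71 genes, and their quartiles were -0.39 and -0.13. The median of all 9713 genes tested, meaning those detected in the same way, was 0.044, with quartiles of -0.28 and 0.33. Of the 71 members, 65 were below 0, beside 45.7% of all genes tested, and 6 were above 0, beside 54.2%. As many, 65 of 71, were below the median of all genes. The SD over members was 0.22, against 0.64 over all genes. A narrow spread was not particular to the members: it was 0.19 for cytosolic ribosomal proteins and 0.23 for the loading of mitochondrial tRNAs. It was wider for mitochondrial translation factors, at 0.39, and for respiratory complexes, at 0.44.

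The differences were small for every member. None of the 71 was at least 2-fold lower or higher, beside 6.44% of all genes 2-fold lower and 3.82% 2-fold higher. At 1.5-fold, 5 members were lower and 0 higher, beside 12.7% and 12.3% of all genes. 5 of 71 is a smaller share than the background, and what most members had in common was the direction. The bead standard error of a log2 ratio had a median of 0.072 over members and covers only the beads of these arrays. By that error 50 members were below 0 by over 2 standard errors, beside 28.8% of all genes, 2 were above 0 by as much, beside 33.8%, and 19 lay within it.

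**Figure D1:**
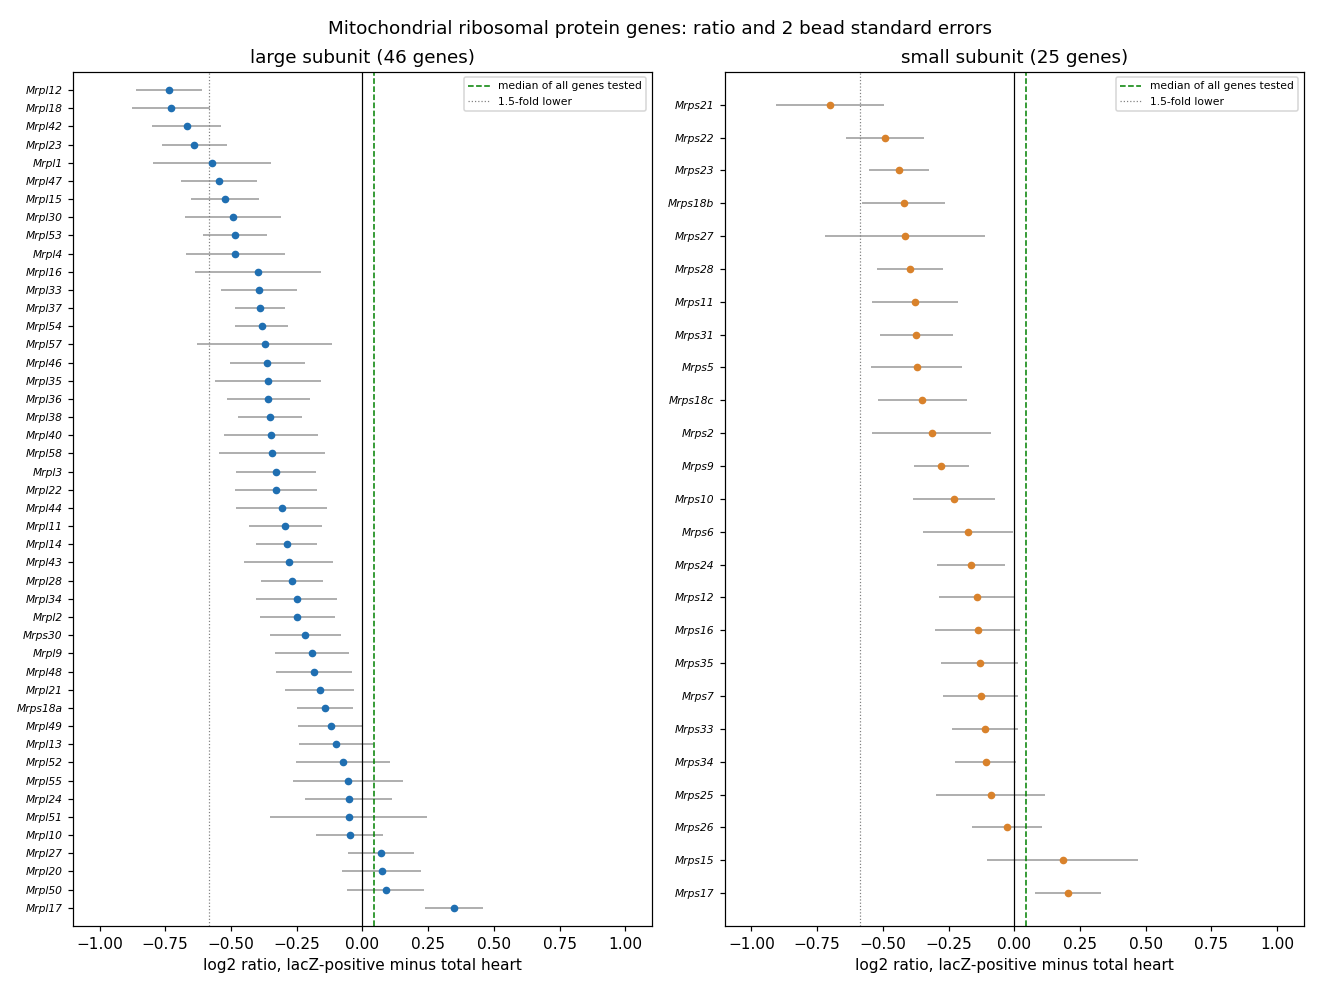
Log2 ratio of each of the 71 detected genes, lacZ-positive minus total heart, with bars of 2 bead standard errors. The left panel holds the 46 genes whose proteins sit in the large subunit and the right panel the 25 of the small subunit. In both panels most points lie left of 0 and of the dashed median of all genes, and 5 lie past 1.5-fold lower. Without normalization between arrays 17 of the 71 lie below 0 and 0 past 1.5-fold.

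The direction in absolute terms depended on how the arrays were scaled to each other. Before any scaling the lacZ-positive array was brighter, and 56 of the 71 members had the higher raw intensity there. Of all genes tested, 81.1% did. With no normalization between arrays the median of the members was 0.11 and that of all genes 0.42. The other ratios given here depend on the scaling too, by amounts that differ between genes and lists. Relative to the median of all genes that of the members was similar either way, at -0.34 as reported and at -0.31 with no normalization, and 65 of 71 were below the median of all genes in both. With median scaling the members stood at 0.029 and all genes at 0.34. A sample that holds fewer cells of a type cannot be told apart from one with less RNA of these genes per cell.

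**Figure D2:**
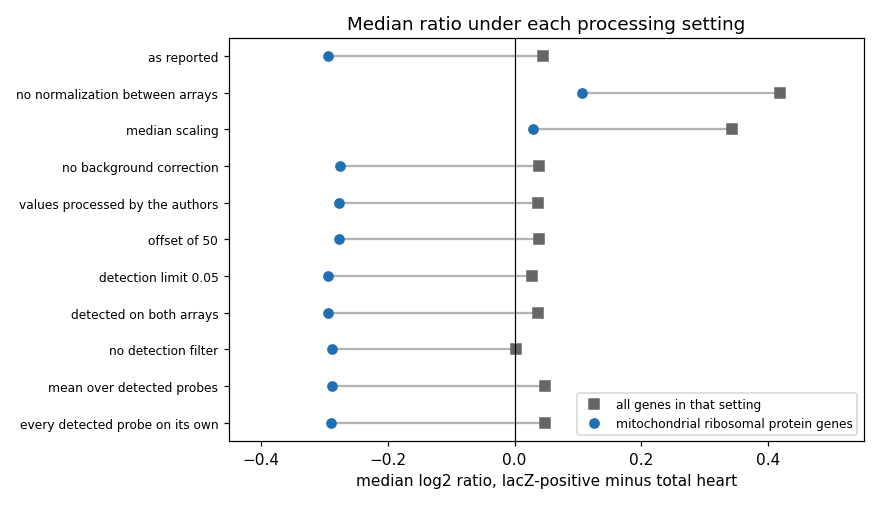
Median log2 ratio (horizontal, lacZ-positive minus total heart) of the mitochondrial ribosomal protein genes (circles) and of all genes (squares) under each of 11 processing settings (vertical). With no normalization between arrays and with median scaling both medians lie above 0. In each setting the circle lies left of the square, by 0.29 to 0.34.

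With the brightest probe standing for each gene, the amount by which members were lower did not go with how bright they were. Normalized log2 signals, averaged over both arrays, ran from 6.54 to 12.59. Across the 71 members the correlation of that signal with the log2 ratio was 0.0023 (Pearson) and 0.0086 (Spearman), over genes that share the same arrays and are not independent replicates. The 49 members at a mean log2 signal of 10 or more had a median ratio of -0.28, where the 2269 genes of that brightness had 0.048. The 22 dimmer members had a median of -0.31, where the 7444 dimmer genes had 0.042.

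**Figure D3:**
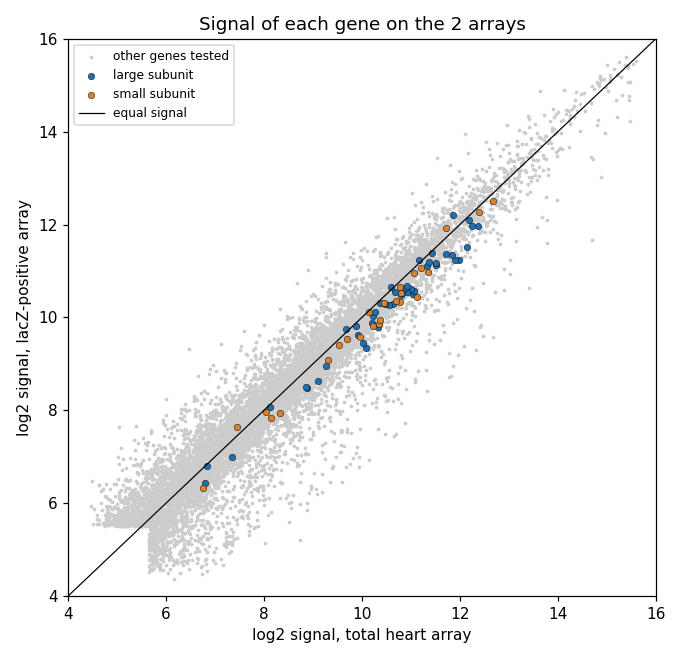
Normalized log2 signal of every gene tested in total heart (horizontal) and in the lacZ-positive cells (vertical). Coloured points are the 71 mitochondrial ribosomal protein genes by subunit, grey points the other genes, and the line marks equal signal. The coloured points follow the line closely and lie mostly just below it, over a range of signals from 6.54 to 12.59 in the mean of both arrays. Before normalization most of them lie above the line, as most genes do.

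The large subunit carries the peptidyl transferase centre, where peptide bonds form, and the tunnel through which the new protein leaves. In the mammalian structure it includes the proteins of Mrps30 and Mrps18a in spite of their names. The 46 large subunit genes had a median ratio of -0.32, and 42 of them were below 0. Of the 5 genes past 1.5-fold lower, 4 belonged here. The lowest was Mrpl12, which encodes the stalk protein that recruits translation factors to the ribosome. Its raw intensity was 3553 ± 103 (bead SE) in total heart and 2787 ± 86.2 in the lacZ-positive cells, or 11.98 and 11.24 as normalized log2 signals. The ratio was -0.74 with a bead standard error of 0.062, or 1.67-fold lower. It is 1 of the 17 members that were also below 0 with no normalization between arrays, at -0.36.

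Mrpl18 had a raw intensity of 952 ± 33.5 in total heart and 788 ± 27.3 in the lacZ-positive cells. Its log2 signals of 10.08 and 9.35 gave a ratio of -0.73 with a bead standard error of 0.074. Its protein belongs to a family of the central protuberance, the head of the large subunit. Mrpl42, whose protein has no bacterial relative, had log2 signals of 11.91 and 11.24 and a ratio of -0.67 (bead SE 0.066). Mrpl23, of a family that lines the rim of the exit tunnel, had signals of 12.15 and 11.51 and a ratio of -0.64 (bead SE 0.061). These 4 genes were dimmer on the lacZ-positive array in the raw values too.

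The next genes in the order lay just inside 1.5-fold. Mrpl1, of the family that forms the mobile side stalk, had a ratio of -0.57 with a bead standard error of 0.11, so that it differed from Mrpl23 by less than that error. Mrpl47, also at the tunnel exit, stood at -0.54 and Mrpl15 at -0.52. Mrpl30 (-0.49), Mrpl53 (-0.48) and Mrpl4 (-0.48) completed the 10 lowest large subunit genes. At the stalk, the partner of Mrpl12 was close to level: Mrpl10, whose protein anchors the stalk to the ribosome, stood at -0.049 with a bead standard error of 0.063.

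Of the large subunit genes, 4 were above 0. Mrpl17 had the highest ratio of all members. Its raw intensity was 3254 ± 75.2 in total heart and 5312 ± 161 in the lacZ-positive cells, and its log2 signals were 11.85 and 12.20. The ratio of 0.35 had a bead standard error of 0.055 and amounts to 1.27-fold higher. Mrpl50 (0.088), Mrpl20 (0.073) and Mrpl27 (0.071), whose protein reaches towards the peptidyl transferase centre, were above 0 by less than 2 bead standard errors. Mrpl58, which encodes a peptidyl-tRNA hydrolase built into the ribosome and able to rescue stalled ones, stood at -0.35. Mrpl44 and Mrps30 stood at -0.31 and -0.22.

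The small subunit binds the messenger RNA and reads the codons. Its 25 genes had a median ratio of -0.23, and 23 of them were below 0. The lowest was Mrps21, with a raw intensity of 1973 ± 89.5 in total heart and 1628 ± 85.2 in the lacZ-positive cells. Its log2 signals were 11.13 and 10.43, which gave a ratio of -0.70 (bead SE 0.10). Next came Mrps22 at -0.49 and Mrps23 at -0.44, neither of which has a bacterial relative. Mrps12, of the family that lines the decoding centre, stood at -0.14 and Mrps34 at -0.11.

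Mrps17 and Mrps15 were the small subunit genes above 0. Mrps17, a binder of ribosomal RNA, had a raw intensity of 2959 ± 102 in total heart and 4445 ± 116 in the lacZ-positive cells. Its ratio was 0.20 with a bead standard error of 0.063, and with Mrpl17 it was 1 of 2 members above 0 by over 2 bead standard errors. Mrps15 stood at 0.18 with a bead standard error of 0.14 and a log2 signal of 7.46 in total heart.

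The ratios of large subunit genes ran from -0.74 to 0.35 and those of small subunit genes from -0.70 to 0.20. The gap between their medians depended on the choice of probe: with each gene's detected probes averaged the medians were -0.29 and -0.27, and over every detected probe both were -0.29 at this precision. The 44 genes of families shared with bacteria had a median of -0.29, and 39 of them were below 0. The 27 genes specific to mitochondria had a median of -0.31, and 26 were below 0. Mrpl50 was the exception among the latter.

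Other probes of the same genes gave a view of error beyond the beads. Of the 71 members, 23 had more than 1 probe detected on both arrays, and in 19 of these every such probe was below 0. The SD between probes of the same gene was 0.22 in log2 ratio over these 23 genes, equal at this precision to the SD between members. It takes in dim probes, while the SD between members uses the brightest probe of each gene. Only in 2 genes, Mrpl49 and Mrpl15, did the probes differ by over 0.5. The order of single members is therefore not resolved beyond what different probes of 1 gene give. Over 3020 genes of the array with several such probes the SD was 0.28.

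Agreement was close for several genes. The 2 probes of Mrpl37 gave -0.39 both times, those of Mrpl33 gave -0.39 and -0.34, and those of Mrps23 gave -0.46 and -0.44. Mrps31 had 3 probes between -0.60 and -0.37. In 4 genes the probes lay on both sides of 0: Mrpl15, Mrpl49, Mrpl38 and Mrpl10. Mrpl49 had the widest spread. Its probe with the highest signal, which stands for the gene, gave -0.12, and the other 3 gave -0.71, 0.026 and 0.33. For Mrpl15 the 4 brighter probes gave -0.53, -0.52, -0.45 and -0.29, and the dimmest, at a log2 signal of 5.97 in total heart, gave 0.31. A dim probe of Mrpl51 was the 1 member probe detected on the lacZ-positive array alone, with log2 signals of 5.12 and 5.60, while the probe that stands for this gene gave -0.052. Over all member probes detected on both arrays, unlike over those that stand for the genes, the dim ones were less low. The 16 with a mean log2 signal under 8 had a median of -0.13, with 12 below 0. The 56 of 10 or more had a median of -0.28, with 51 below 0.

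**Figure D4:**
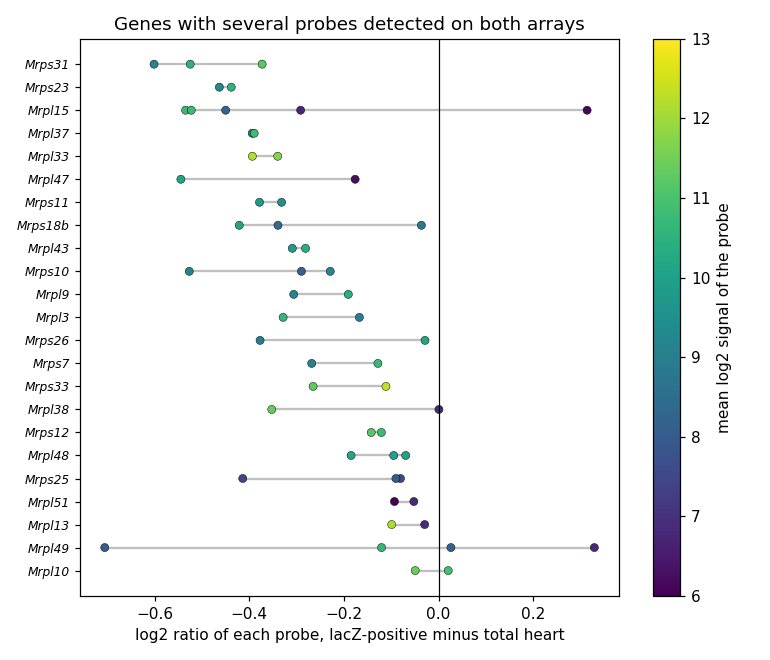
Log2 ratio of each probe detected on both arrays, for the 23 genes with more than 1 such probe, with the colour giving the mean log2 signal of the probe. Most genes have all their points left of 0. Mrpl49 and Mrpl15 spread widest, and their points furthest to the right, at 0.33 and 0.31, are dim probes. Unnormalized, the points move right with those of all genes.

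Of the 76 genes, 5 were detected on neither array by any probe: Mrpl19, Mrpl32, Mrpl39, Mrpl45 and Mrps14. They have no ratio here. Mrpl45, whose protein ties the ribosome to the inner membrane, came close, with a detection p-value of 0.0128 on both arrays for its better probe, and Mrpl39 had 0.018 and 0.032. The raw intensities of the probes of Mrpl19, between 45.8 and 48.7, lay in the range of the background. Such values describe the probes, and they do not show that the transcripts are absent.

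The start regions of part of these genes hold sequence features that the selection by name did not use. RefSeq promoter windows of build GRCm38.p6, from 250 bases before to 50 bases after the start, were found for 67 of the 76 genes, in 73 windows. They were searched on both strands for motifs known from nuclear genes of mitochondrial proteins: CCGGAAG, bound by ETS factors such as GABP, GCATGCGC, the core of the site of NRF1, and AAGATGGC, the core of the site of YY1. Longer forms that contain these cores were also counted: the NRF1 core with GC before it, which makes a palindrome, and the YY1 core with GGC after it. A match is a run of letters and not evidence of binding.

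The ETS motif stood in 26 of 73 member windows (35.6%), beside 17.1% of the windows of genes tested on the arrays and 8.86% of all windows. The NRF1 core stood in 8 (11.0%), beside 5.15% and 2.71%, and its longer form in 3 (4.11%), beside 1.97% and 0.971%. The YY1 core stood in 12 (16.4%), beside 4.30% and 2.75%, and its longer form in 5 (6.85%), beside 1.43% and 0.633%. At least 1 of the 3 motifs stood in 52.1% of member windows, in 24.2% of those of genes tested and in 13.3% of all. Member windows include those of undetected members, so they and the windows of genes tested are not like sets. Of the 63 detected members with a window, 6 had the NRF1 core and 1, Mrpl9, its longer form. The other windows with the longer form belong to Mrpl32 and Mrpl39, which were not detected. All 8 YY1 cores that lie on the strand of the gene came after the transcription start. These 8 are printed with 24 bases each, to show their place. Their shared direction follows from the choice of cores on the gene strand. The other 4 cores, of Mrps11, Mrpl36, Mrps12 and Mrpl32, lie on the other strand and before the start. Capitals mark the YY1 core or its longer form.
Mrps27 (chr13:99344792-99344815, + strand): tgcgctccAAGATGGCGGCtccca
Mrpl37 (chr4:107066825-107066848, - strand): cacgggcaAAGATGGCGGCgtcca
Mrpl35 (chr6:71823746-71823769, - strand): caggctgcAAGATGGCGGCttcca
Mrps18a (chr17:46111007-46111030, + strand): tgcgttccAAGATGGCGGCcctca
Mrpl42 (chr10:95501907-95501930, - strand): attgaagcAAGATGGCgagcgcgc
Mrps7 (chr11:115604150-115604173, + strand): cagcggccAAGATGGCtgcccccg
Mrpl49 (chr19:6057724-6057747, - strand): gaggcgccAAGATGGCagcagcgg
Mrps24 (chr11:5707652-5707675, - strand): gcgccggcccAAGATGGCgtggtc

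In these lines the core holds ATG, and in Mrps27, Mrpl37, Mrpl35 and Mrps18a it runs on into the longer form. The log2 ratios of these genes were -0.42 for Mrps27, -0.39 for Mrpl37, -0.36 for Mrpl35 and -0.14 for Mrps18a. They were -0.67 for Mrpl42, -0.13 for Mrps7, -0.12 for Mrpl49 and -0.16 for Mrps24.

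The 250 bases before the start are shown for 4 further genes, with every match on either strand in capitals. Mrpl12 and Mrpl17 stand at the lowest and the highest ratio, Mrps22 has an ETS motif close to its start, and Mrpl9 is the only detected member with the longer NRF1 form. None of these stretches overlaps another annotated gene.
Mrpl12 (chr11:120484387-120484636, + strand): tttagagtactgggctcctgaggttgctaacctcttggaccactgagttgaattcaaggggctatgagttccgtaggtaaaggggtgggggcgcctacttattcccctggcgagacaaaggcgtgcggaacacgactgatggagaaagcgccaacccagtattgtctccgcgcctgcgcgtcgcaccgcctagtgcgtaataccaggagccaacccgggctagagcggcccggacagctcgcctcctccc
Mrpl17 (chr7:105811088-105811337, - strand): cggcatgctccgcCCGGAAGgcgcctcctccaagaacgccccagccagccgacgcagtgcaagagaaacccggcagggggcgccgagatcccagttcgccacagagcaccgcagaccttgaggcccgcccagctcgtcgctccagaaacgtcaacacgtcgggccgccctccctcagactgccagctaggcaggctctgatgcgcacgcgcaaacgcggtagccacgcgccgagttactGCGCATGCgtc
Mrps22 (chr9:98601680-98601929, - strand): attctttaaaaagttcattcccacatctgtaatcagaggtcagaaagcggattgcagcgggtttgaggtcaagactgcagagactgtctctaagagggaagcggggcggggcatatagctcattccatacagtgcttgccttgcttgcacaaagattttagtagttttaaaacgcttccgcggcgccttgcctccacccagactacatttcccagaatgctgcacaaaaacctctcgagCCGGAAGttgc
Mrpl9 (chr3:94443086-94443335, + strand): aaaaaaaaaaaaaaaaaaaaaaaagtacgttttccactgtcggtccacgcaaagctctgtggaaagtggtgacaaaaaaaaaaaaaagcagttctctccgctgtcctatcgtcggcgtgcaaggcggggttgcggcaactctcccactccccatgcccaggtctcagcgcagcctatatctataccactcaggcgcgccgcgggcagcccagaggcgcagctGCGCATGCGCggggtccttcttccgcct

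Mrpl12, the lowest member, showed none of the 3 motifs here, while Mrpl17, the highest, showed an ETS motif and the NRF1 core. Ratios could be set beside the motifs for the 63 detected members with a window. The 26 detected members with the ETS motif had a median ratio of -0.30 and the 37 without it -0.29. For the NRF1 core the medians were -0.26 with it (6 genes) and -0.29 without (57 genes). The 11 with the YY1 core had a median of -0.36, and all 11 were below 0. The 52 without it had a median of -0.28, and 46 of them were below 0, as most members were.

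Many of these genes start beside another gene. The 250 bases before the start overlapped another annotated gene in 35 of 73 member windows (47.9%), beside 25.3% of the windows of genes tested. The 73 include windows of undetected members. In 1 case both are members: Mrps11 and Mrpl46 lie head to head on opposite strands, and their ratios were -0.38 and -0.36. Some other neighbours also serve mitochondrial gene expression. Mrpl43 (-0.28) lies beside Twnk, the helicase of mitochondrial DNA, at -0.25. Mrps12 (-0.14) lies beside Sars2, a mitochondrial seryl-tRNA synthetase gene, at -0.41 with a bead standard error of 0.16, and Mrps27 (-0.42) beside Ptcd2, which acts on mitochondrial RNA, at -0.25. In 18 detected members an overlapping neighbour whose own promoter window placed it on the opposite strand was itself tested. Mrps11 and Mrpl46 each counted as the other's neighbour. Of these 18 neighbours 15 were below 0, beside 45.7% of all genes, with a median ratio of -0.24. The members Mrps11 and Mrpl46 are among the 15. Some of the 15 lay within 2 bead standard errors of 0, such as Zfp189 (-0.084, bead SE 0.23) and Helq (-0.24, bead SE 0.21). The neighbours were read after quantile normalization only, and whether they share the direction of the members was not tested. Exceptions were Mitd1, at 0.44 beside Mrpl30 at -0.49, Rab6a, at 0.31 beside Mrpl48 at -0.18, and Abhd8, at 0.17 beside Mrpl34 at -0.25. Mrpl32, which was not detected and is not among the 18, has Psma2 as such a neighbour, at 0.13. Wdfy1, which overlaps the bases before the start of Mrpl44 (-0.31), was tested at 0.43. It had no window to give its strand and is not among the 18 either.

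Proteins of the mitochondrial ribosome that carry other names were few on the array. Ptcd3 stood at -0.64 and Gadd45gip1 at -0.48. Dap3, a small subunit protein first named for cell death, stood at -0.017 and Chchd1 at 0.15. Their median was -0.25, and 3 of 4 were below 0.

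Other genes of mitochondrial translation lay on the same side of all genes, and like the members their medians were above 0 with no normalization between arrays, at 0.13 for translation factors and 0.035 for tRNA loading. Of 15 detected translation factor genes, 12 were below 0, with a median of -0.27. At least 1.5-fold lower were 2, a share close to the 12.7% of all genes. The 2 were Lrpprc (-0.63), which stabilises mitochondrial messenger RNA, and Gfm2 (-0.61), which recycles ribosomes. Tufm, the elongation factor that brings in aminoacyl-tRNA, stood at -0.40. The genes above 0 were Guf1, a translation GTPase, at 0.87, or 1.82-fold higher, Mtrf1l, a release factor, at 0.24 and Mtif3, an initiation factor, at 0.018. Of 17 detected genes for loading mitochondrial tRNAs, 15 were below 0, with a median of -0.36. The lowest were Mars2 (-0.73) and Gatb (-0.72). Kars and Gars, whose products also work in the cytosol, stood at -0.10 and -0.36.

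Genes that assemble the mitochondrial ribosome or modify its RNA lay close to the median of all genes. Of the 19 detected, 10 were below 0 and the median was -0.0079. Mrm1 (-0.75) and Mrm3 (-0.59), both methyltransferases of the large ribosomal RNA, were at least 1.5-fold lower, while Dhx30 stood at 0.22 and Gtpbp10 at 0.31. Genes of mitochondrial DNA upkeep and transcription had a median of 0.011, with 8 of 16 below 0. Polg, the DNA polymerase, stood at -0.72 and Tfam, which packs mitochondrial DNA and starts its transcription, at 0.23. In none of these lists was a gene at least 2-fold lower or higher, beside 6.44% and 3.82% of all genes.

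The respiratory complexes, most of which take up products of these ribosomes, had lower ratios than the members. Their median was below 0 with no normalization too, at -0.21. Of 72 detected subunit genes of complexes I to V, 71 were below 0, with a median of -0.53. Lower by 1.5-fold or more were 25, beside 12.7% of all genes tested. Of these, 5 were lower by 2-fold or more, a share of the 72 that is close to the 6.44% of all genes. Cox8b, Cox6a2 and Cox7a1, muscle forms of cytochrome oxidase subunits, had the lowest ratios, at -2.66, -2.17 and -2.03. The others past 2-fold were Cox6b2 at -1.69 and Cox7b at -1.07. The ribosomal proteins of the cytosol lay close to all genes, on a side that depended on the scaling. Of 51 detected genes 15 were below 0, with a median of 0.078, and their ratios ran from -0.23 to 0.81. Relative to the median of all genes they stood at 0.034 after quantile normalization and at -0.17 with none. With 1 array a group, whether the lists differ could not be tested.

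**Figure D5:**
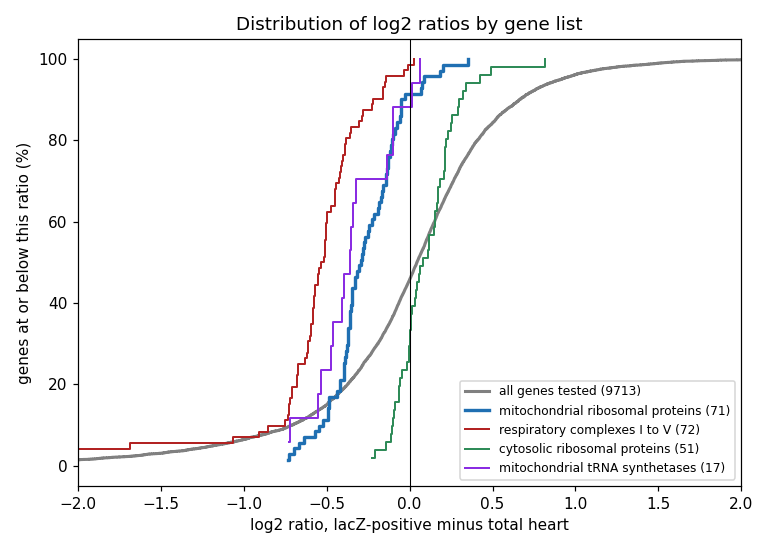
Share of genes (vertical, in percent) at or below each log2 ratio (horizontal), for all 9713 genes tested and for 4 lists. The curve of the 71 mitochondrial ribosomal protein genes is steep, crosses its midpoint at -0.29 and lies between those of the respiratory complexes (-0.53) and of the cytosolic ribosomal proteins (0.078). With no normalization between arrays these 3 medians are 0.11, -0.21 and 0.25, and ratios past 2 in size are not drawn.

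Several lists of cell type markers also differed between the arrays. All 7 detected cardiomyocyte markers were lower in the lacZ-positive cells, with a median of -1.77, and their summed normalized intensity was 70280 in total heart and 21557 in the lacZ-positive cells. The 6 detected erythroid markers were lower too, with a median of -1.96 and sums of 133315 and 78844. The 5 detected markers of epicardium and mesothelium were all higher, with a median of 1.52 and sums of 4298 and 15370. Among erythroid markers Gata1 was not well above background on the lacZ-positive array, and Epb42 was on neither. The epicardial Msln and Tbx18 were also detected on neither. The 4 detected mesenchyme markers were all higher, with a median of 1.01. Endothelial markers were mixed, with 4 of 5 below 0, a median of -0.19, which was 0.22 with no normalization between arrays, and Tek at 0.50. Of 3 detected leukocyte markers, Lyz2 and Pf4 were lower, at -1.48 and -1.41, and Csf1r stood at 0.21. For the 71 members themselves the sums were 133472 and 111494. The part of these cell types in the ratios of the members was not tested.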

How the data were processed

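RNA of 2 samples was measured on Illumina mouse bead arrays. The authors deposited a mean bead intensity for each probe and array, neither background-subtracted nor scaled, per the file headers and the values. The deposited table also held the signal's standard error over beads, the number of beads and a detection p-value, per the file headers. The series matrix held intensities processed by the authors in a way not given in the sources used here. On their values they are linear, equalised between arrays and not centred, with no sign, since they are levels. GenomeStudio is named in the submitters' processing notes, and the genome build is not given in the sources used here.

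From the raw intensities, background was corrected with normexp from the detection p-values (nec, limma 3.58.1, R 4.3.3) with an offset of 16, followed by quantile normalization and log2. A gene was tested if a probe had a detection p-value under 0.01 on at least 1 array, and the probe with the highest mean log2 signal stood for it. Bead standard errors were carried to the log2 scale. Gene names came from the platform annotation, where 34885 probes had 1 gene symbol, 18 several and 10378 none. All 76 member symbols equalled those in a RefSeq gene table. Raw intensities had a median of 57.6 for total heart and 63.5 for the lacZ-positive cells, from 43 beads per probe at the median. The probe that stands for each detected member had 20 or more beads on both arrays. The number of arrays limits the precision.

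The members and lists were chosen with earlier results of these data known. Any member could be named. Full values went to the 8 highest and 8 lowest, to members near 1.5-fold, to undetected members and to those whose probes disagreed, and examples of these are given. Of other lists the 3 highest, the 3 lowest and any past 2-fold could be named, and Tufm and the genes that neighbour members were chosen after their values were seen. Subunits and families were assigned from mammalian ribosome structures. The normalization was run on simulated data where a small set of bright probes had known ratios in both directions. All probes there shared a single change of brightness. Such data do not bear on which scaling fits the real arrays. Alternatives covered scaling, background, offset, detection limit, filter and choice of probe.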

Additional observations from a re-analysis of the deposited data

How the results depend on the processing

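The median, the number below 0 and the 1.5-fold count kept their direction and size without background correction, with an offset of 50, with the values processed by the authors, with a detection limit of 0.05, detection on both arrays or no filter, and with other rules for probes. They did not with other scalings. With no normalization between arrays the median was 0.11, 17 members were below 0 and 0 were 1.5-fold lower. The medians were then 0.098 for the large subunit, 0.16 for the small subunit, 0.11 for families shared with bacteria and 0.11 for proteins specific to mitochondria. With median scaling the median was 0.029, 31 members were below 0 and 0 were 1.5-fold lower, and the class medians were 0.021, 0.085, 0.037 and 0.029 in the same order. These scalings also moved the ratios of other genes, by amounts that differ between genes, and the median of all genes was then 0.42 and 0.34. Relative to it, a measure chosen after seeing the data, the members lay between -0.34 and -0.29 in all 11 settings. No member was 2-fold lower in any of them. No paired analysis was possible because each group has 1 array, and for the same reason no array could be left out. Differences near the bead error, a median of 0.072 in log2, are not resolved, least of all for probes close to background.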
